A study of Saccharomyces cerevisiae with 8 samples.

Results

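The 10 genes described here encode the core proteins and assembly factors of the small nucleolar ribonucleoproteins (snoRNPs) of budding yeast, Saccharomyces cerevisiae. They were chosen by gene identifier, not by a cut on measured values, though earlier results of these data were known. They are 10 of the 7126 features in the count table. On the C/D side stand NOP1 (YDL014W), NOP56 (YLR197W), NOP58 (YOR310C), SNU13 (YEL026W) and the assembly factor BCD1 (YHR040W). On the H/ACA side stand CBF5 (YLR175W), GAR1 (YHR089C), NHP2 (YDL208W), NOP10 (YHR072W-A) and the assembly factor NAF1 (YNL124W). Small RNA was sequenced from 4 groups of 2 libraries, all from cells in rich YPD medium: ubc9-1 cells with rapamycin, ubc9-1 cells untreated, wild-type (WT) cells with rapamycin, and WT cells untreated. The ubc9-1 strain carries a mutant of UBC9, the enzyme that conjugates SUMO to proteins, and its growth temperature is not given in the sources used here. Rapamycin, an inhibitor of the growth-promoting kinase complex TORC1, was given at 100 nM for 30 minutes. The study title asks how TORC1 acts through SUMO on RNA polymerase III. These mRNAs are made by RNA polymerase II, so they lie beside that question.

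SnoRNPs modify ribosomal RNA while the ribosome is being built. Each holds a guide RNA that base-pairs with its target, and a protein core that carries the enzyme. In C/D snoRNPs the enzyme is Nop1 (fibrillarin), which methylates the ribose, and in H/ACA snoRNPs it is Cbf5, which turns uridine into pseudouridine. Growing yeast makes these proteins together with the many other ribosome assembly factors, the ribosome biogenesis regulon, whose promoters often carry the elements PAC and RRPE. In yeast the repressors Dot6 and Tod6 bind PAC and Stb3 binds RRPE, and all of them act downstream of TORC1.

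Both elements were found upstream of all 10 genes. The cores searched were GATGAG for PAC and AAAAATTT for RRPE, on both strands, with overlapping matches allowed, in the 300 bases from 250 before to 50 after the first base of the start codon. Of 6001 nuclear protein-coding genes, 20.4% held the PAC core, 14.1% the RRPE core and 5.63% both. The stretches from the first to the last match are shown for 9 genes, which all hold both elements, the only 2 searched for. BCD1, whose cores lie far apart, is described only. The stretches are read 5′ to 3′ on the gene's own strand from the R64 genome of RefSeq. Both cores are in capitals, and CTCATC and AAATTTTT are the cores on the other strand.
NOP1, chrIV:427114-427170, plus strand: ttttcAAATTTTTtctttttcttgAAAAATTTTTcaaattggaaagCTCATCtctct
NOP56, chrXII:545951-545998, plus strand: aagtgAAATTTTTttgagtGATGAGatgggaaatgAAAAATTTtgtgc
NOP58, chrXV:898425-898499, minus strand: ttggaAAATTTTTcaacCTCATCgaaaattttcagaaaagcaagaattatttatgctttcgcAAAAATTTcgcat
SNU13, chrV:101718-101773, plus strand: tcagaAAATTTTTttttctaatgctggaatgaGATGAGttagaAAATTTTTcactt
CBF5, chrXII:505929-506013, plus strand: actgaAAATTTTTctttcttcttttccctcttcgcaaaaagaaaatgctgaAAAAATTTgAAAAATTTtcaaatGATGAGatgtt
GAR1, chrVIII:283413-283441, minus strand: tagtgAAAAATTTTTcgaGATGAGgaaag
NHP2, chrIV:87383-87420, plus strand: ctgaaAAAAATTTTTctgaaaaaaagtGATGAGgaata
NOP10, chrVIII:241529-241561, plus strand: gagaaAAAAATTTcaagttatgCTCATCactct
NAF1, chrXIV:392771-392799, plus strand: ccatgAAATTTTTcaggcGATGAGcttaa

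The order and spacing of the 2 elements were set beside those of other windows. In all 10 genes an RRPE core lay farther from the start codon than any PAC core, as in 62.8% of the other 328 windows that held both. NOP56, NOP58 and SNU13 also held an RRPE core nearer to the start codon than the PAC core. In SNU13 the shortest gap was to that nearer core. In 9 of the 10 genes the shortest gap between the cores was 3 to 12 bases, and 44.5% of the other 328 windows had a gap of at most 12 bases, a limit set after the members' gaps were seen. BCD1 differed, with 2 overlapping PAC cores, the nearer beginning 54 bases before the start codon, and an RRPE core 76 bases farther out. The PAC core nearest to the start codon began 102 bases before it in NHP2 and 204 bases before it in NOP1, and the other 7 shown lay between these. A match of letters does not show that a factor was bound there, and genes that diverge from one intergenic stretch share windows.

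**Figure D1:**
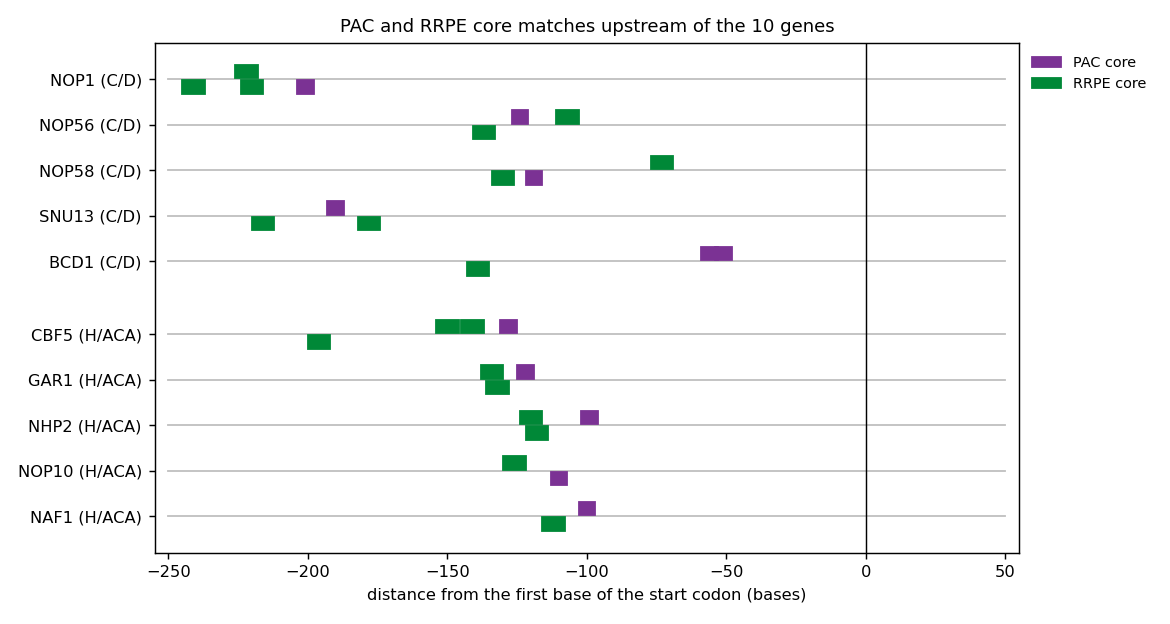
Positions of PAC cores (purple) and RRPE cores (green) in the 300 bases around the start codon of each gene, in bases from its first base at 0. Boxes above a line are on the gene's own strand and boxes below it on the other strand. In all 10 genes at least 1 RRPE core lies left of every PAC core, and BCD1 has the longest gap, 76 bases.

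The 10 genes had between 4 and 962 counts in a library, in libraries of 14304014 to 21061460 assigned counts, and all 10 passed the filter on low counts that kept 6115 features. RNA of 50 to 100 nt was selected, so a count here is a fragment of an mRNA, and fragments may not track intact mRNA. In bulk RNA, fewer cells making an mRNA and less of it per cell cannot be told apart. Before scaling for composition, the members summed to 72.5 and 57.8 CPM (counts divided by the library's total and put on a common scale) in ubc9-1 with rapamycin, 92.3 and 183 in ubc9-1 untreated, 67.1 and 58.4 in WT with rapamycin, and 149 and 280 in WT untreated. The second untreated library of each strain was close to 2 times the first, a gap that TMM scaling narrows (the TMM factors ran from 0.695 to 1.37), and values below are CPM of TMM-scaled libraries. UBC9 had 221 and 298 counts in ubc9-1 with rapamycin, 307 and 554 in ubc9-1 untreated, 79 and 114 in WT with rapamycin, and 2 and 74 in WT untreated; the allele is a sequence change, which such counts do not check. The strains also differ at markers: ADE2 had 112 and 200, 189 and 302, 0 and 0, and 14 and 9 counts in the same 4 groups, so a strain difference cannot be told apart from strain background. Whether the paired libraries of a group were separate cultures is not given in the labels, so p-values reflect the spread among these libraries alone, and that spread may be technical.

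In WT cells, fragments of all 10 mRNAs were lower with rapamycin. The fall passed the test for 9 of the 10, and GAR1 alone did not pass. The falls ran from 2.38-fold for NAF1 to 6.99-fold for NHP2, and the median log2 fold change of the 10 was -2.22, against 0.04 over all features tested. Of all 6115 features, 11.6% were called lower in this comparison, at an edgeR quasi-likelihood adjusted p under 0.05. In all 10 genes both treated WT libraries lay below both untreated WT libraries, which held for 28% of all features tested. In ubc9-1 cells only NOP1 passed the test, where 0.654% of all features were called lower. The median of the 10 there was -0.99, against -0.01 over all features, and 5 of them had an unadjusted p under 0.05 (9.68% of all features). In 8 genes both treated ubc9-1 libraries lay below both untreated ones, as for 19.7% of all features, and the exceptions were SNU13 and GAR1.

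**Figure D2:**
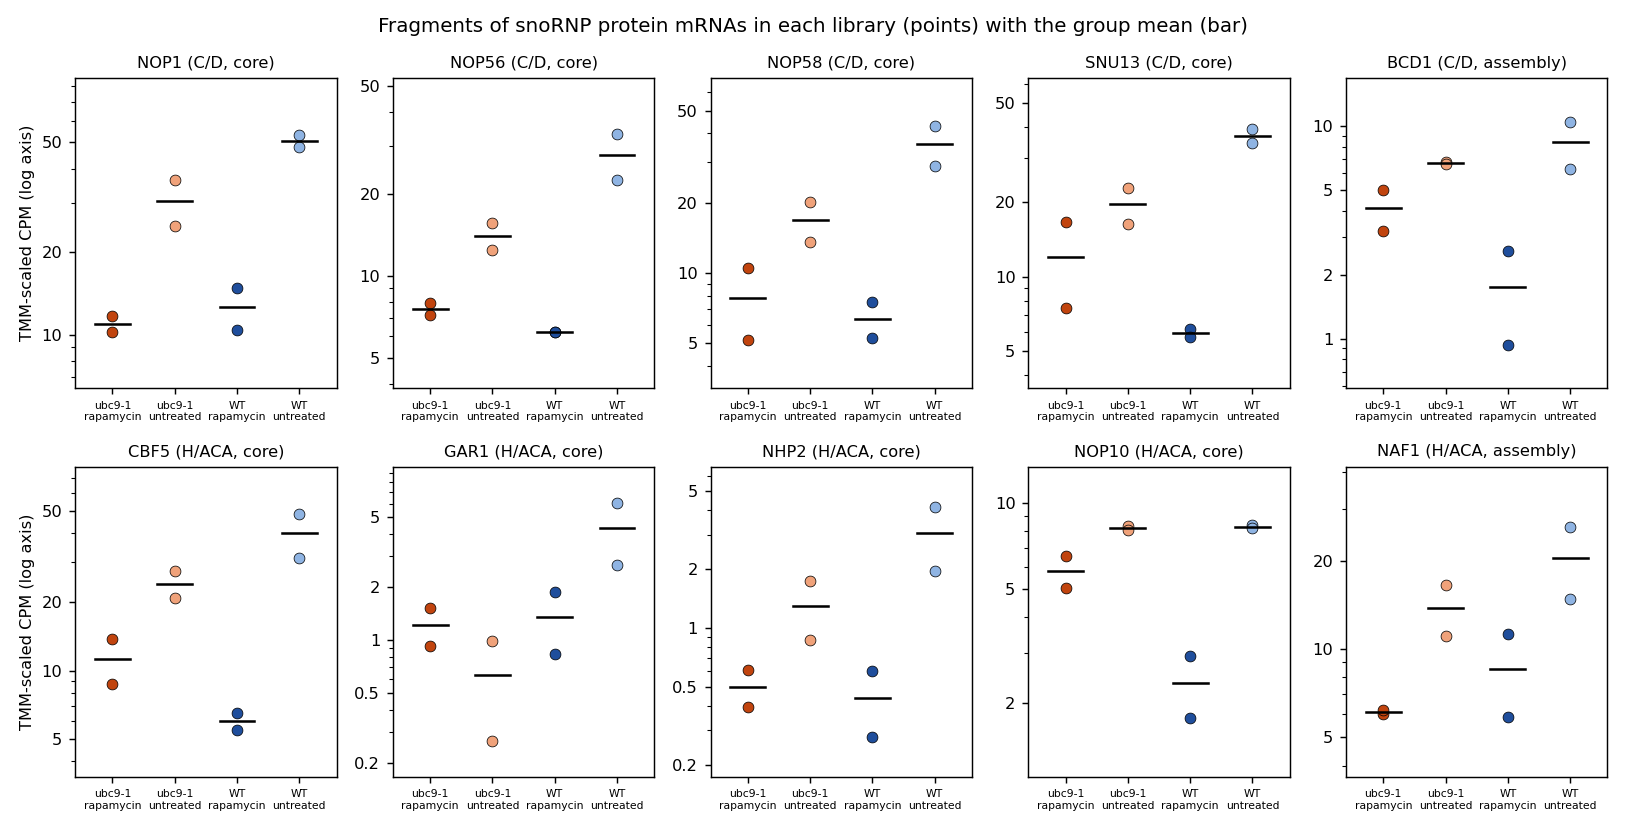
TMM-scaled CPM (log axis) of each gene in each of the 8 libraries (points) with the mean of each group of 2 (bar), C/D genes above and H/ACA genes below. In every panel both rapamycin points of WT lie below both untreated points of WT, while SNU13 and GAR1 overlap between treatments in ubc9-1.

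Among C/D proteins, NOP1 (chromosome IV, 427364 to 428347), the methyltransferase, had 10.2 and 11.7 CPM in ubc9-1 with rapamycin, 24.9 and 36.5 in ubc9-1 untreated, 14.8 and 10.4 in WT with rapamycin, and 48.1 and 53.4 in WT untreated. All 4 treated libraries lay below all 4 untreated ones. It fell with rapamycin in ubc9-1 by 1.49 on the log2 scale (SE 0.308, adjusted p = 0.0268) and was at -2.01 in WT, also called lower (SE 0.308, adjusted p = 0.000548). NOP56 (chromosome XII, 546097 to 547611), a scaffold of the C/D core, had 7.97 and 7.18 CPM in ubc9-1 with rapamycin, 12.4 and 15.6 in ubc9-1 untreated, 6.23 and 6.18 in WT with rapamycin, and 22.5 and 33.3 in WT untreated. Again no treated library reached an untreated one. Its fall in WT was 2.17 (SE 0.309, adjusted p = 0.00033), and in ubc9-1 it was at -0.89 (adjusted p = 0.257). Its partner scaffold NOP58 (chromosome XV, 896825 to 898360) had 10.5 and 5.14 CPM in ubc9-1 with rapamycin, 13.7 and 20.3 in ubc9-1 untreated, 7.52 and 5.25 in WT with rapamycin, and 28.8 and 43.1 in WT untreated. NOP58 followed NOP56 closely, with a wider gap between the treated ubc9-1 libraries. It fell by 2.50 in WT (SE 0.390, adjusted p = 0.000602) and was at -1.12 in ubc9-1 (adjusted p = 0.252).

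SNU13 (chromosome V, 101943 to 102323) binds the kink-turn that starts C/D assembly, and also sits on U4 in the spliceosome. It had 16.5 and 7.51 CPM in ubc9-1 with rapamycin, 22.8 and 16.3 in ubc9-1 untreated, 6.15 and 5.70 in WT with rapamycin, and 34.4 and 39.3 in WT untreated. One treated ubc9-1 library was as high as an untreated one, so the ubc9-1 groups overlap, whereas the WT groups stand far apart. SNU13 fell by 2.64 in WT (SE 0.370, adjusted p = 0.000306) and was at -0.71 in ubc9-1 (adjusted p = 0.573). BCD1 (chromosome VIII, 187924 to 189024), a zinc-finger protein needed to assemble C/D snoRNPs and absent from the finished particle, had 5.01 and 3.23 CPM in ubc9-1 with rapamycin, 6.81 and 6.62 in ubc9-1 untreated, 2.58 and 0.938 in WT with rapamycin, and 10.5 and 6.32 in WT untreated. The treated libraries were the lower ones in both strains. The fall in WT was 2.26 (SE 0.486, adjusted p = 0.00501), and BCD1 was at -0.71 in ubc9-1 (adjusted p = 0.740).

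On the H/ACA side, CBF5 (chromosome XII, 506134 to 507585), the pseudouridine synthase, had 13.7 and 8.76 CPM in ubc9-1 with rapamycin, 20.8 and 27.3 in ubc9-1 untreated, 6.54 and 5.49 in WT with rapamycin, and 31.3 and 48.9 in WT untreated. Treated libraries lay below untreated ones in both strains, and the gap was wider in WT. CBF5 fell by 2.74 in WT (SE 0.345, adjusted p = 0.00014), and was at -1.10 in ubc9-1 (adjusted p = 0.168). NOP10 (chromosome VIII, 241664 to 241840), a small protein that braces the catalytic domain of Cbf5, had 6.52 and 5.07 CPM in ubc9-1 with rapamycin, 8.35 and 8.04 in ubc9-1 untreated, 2.92 and 1.77 in WT with rapamycin, and 8.37 and 8.21 in WT untreated. All 4 untreated libraries lay between 8.04 and 8.37 CPM, and the strains parted under the drug. NOP10 fell by 1.82 in WT (SE 0.369, adjusted p = 0.0035) and was at -0.50 in ubc9-1 (adjusted p = 0.771). NAF1 (chromosome XIV, 392892 to 394370), the assembly factor that Gar1 replaces in the mature particle, had 5.99 and 6.19 CPM in ubc9-1 with rapamycin, 16.5 and 11.1 in ubc9-1 untreated, 11.2 and 5.87 in WT with rapamycin, and 26.1 and 14.8 in WT untreated. Its 2 responses were nearly equal: NAF1 fell by 1.25 in WT (SE 0.380, adjusted p = 0.0323) and was at -1.17 in ubc9-1 (SE 0.390, adjusted p = 0.229).

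NHP2 and GAR1 rest on few counts, and their values are the least certain of the 10. NHP2 (chromosome IV, 87512 to 87982), an H/ACA core protein of the same family as Snu13, had 8 and 6 counts (0.607 and 0.395 CPM) in ubc9-1 with rapamycin, 26 and 20 (1.74 and 0.865 CPM) in ubc9-1 untreated, 14 and 8 (0.602 and 0.278 CPM) in WT with rapamycin, and 22 and 75 (1.96 and 4.16 CPM) in WT untreated. Treated libraries were again the lower ones in both strains. NHP2 fell by 2.81 in WT (SE 0.809, adjusted p = 0.0254) and was at -1.36 in ubc9-1 (SE 0.832, adjusted p = 0.700). GAR1 (chromosome VIII, 282681 to 283298), which joins last and completes the H/ACA particle, had 20 and 14 counts (1.52 and 0.922 CPM) in ubc9-1 with rapamycin, 4 and 23 (0.267 and 0.995 CPM) in ubc9-1 untreated, 44 and 24 (1.89 and 0.834 CPM) in WT with rapamycin, and 30 and 109 (2.67 and 6.05 CPM) in WT untreated. Both untreated ubc9-1 libraries lay below both untreated WT libraries, and the ubc9-1 treatments overlap, as they do for SNU13. GAR1 was at -1.69 in WT (SE 0.704, adjusted p = 0.104) and at 0.88 in ubc9-1 (SE 0.769, adjusted p = 0.842).

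The WT response kept its direction under each scaling tried, and its count of calls changed with the scaling and with single libraries. All 10 values in WT were negative when libraries were scaled by total counts or by snoRNAs, with medians of -1.76 and -1.98 where those of all features moved to 0.52 and 0.28, and 6 members were called under each, with NHP2, NOP10 and NAF1 no longer called. Without replicate 2 of WT with rapamycin, 5 members were called, NOP1, NOP56, NOP58, SNU13 and CBF5. NHP2 was also lost without replicate 1 of WT with rapamycin or replicate 2 of WT untreated, and NAF1 without replicate 1 of WT untreated, which left 8 called each time. In ubc9-1 the call of NOP1 was lost without replicate 1 or replicate 2 of ubc9-1 with rapamycin, or without replicate 2 of ubc9-1 untreated (adjusted p = 0.293, 0.274 and 0.185).

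**Figure D3:**
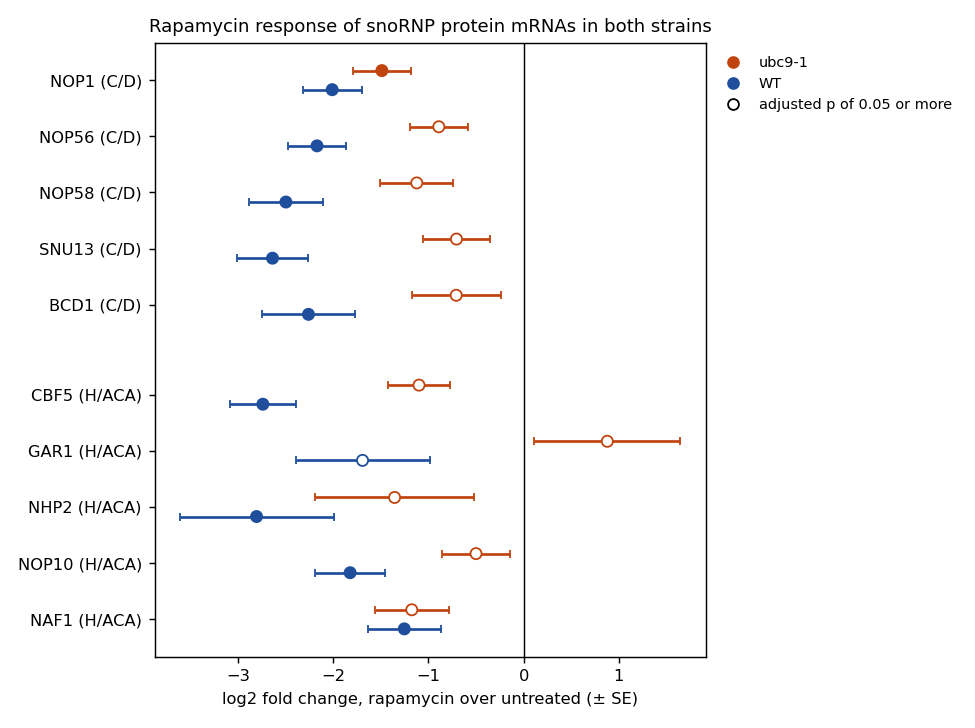
Log2 fold change with rapamycin over untreated (points, with the standard error as a bar) for each gene in ubc9-1 (orange, upper of each pair) and WT (blue, lower); filled points have an adjusted p under 0.05. WT points run from -2.81 to -1.25 and ubc9-1 points from -1.49 to 0.88.

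The WT response was the larger in size for every gene, but the difference between strains passed the test for none. The interaction, which is the log2 response in ubc9-1 minus that in WT, was positive for all 10 genes, from 0.08 for NAF1 to 2.57 for GAR1, with a median of 1.41 against -0.05 over all features. It was 1.93 for SNU13 (SE 0.502, adjusted p = 0.144), 1.64 for CBF5 (SE 0.465, adjusted p = 0.164), 1.55 for BCD1 (adjusted p = 0.319), 1.37 for NOP58 (adjusted p = 0.285), 1.32 for NOP10 (adjusted p = 0.283) and 1.28 for NOP56 (adjusted p = 0.221). NHP2 was at 1.45 (adjusted p = 0.626), GAR1 at 2.57 (SE 1.04, adjusted p = 0.299), NOP1 at 0.52 (adjusted p = 0.641) and NAF1 at 0.08 (adjusted p = 0.964). By edgeR 0 of the 10 were called, where 0.164% of all features were. An unadjusted p under 0.05 was seen for 7 of the 10, against 14.1% of all features. That count of 7 depends on the scaling: it was 1 with total counts, 0 with snoRNA factors and 0 with limma. DESeq2 called 1, SNU13. Shares over all features were not taken for these alternatives. NOP1 and NAF1, the methyltransferase and an assembly factor, had the smallest interaction values. With scaling by total counts the median of all features was -0.56, that of the members was 0.94, and NOP1 and NAF1 turned to -0.01 and -0.39.

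Without the drug the 10 mRNAs had 0 calls between the strains by edgeR, though all 10 values were negative under TMM scaling, with a median of -0.83 for ubc9-1 over WT against 0.02 over all features. Of all features, 2.4% were called lower in ubc9-1 by edgeR. An unadjusted p under 0.05 was seen for 6 of the 10, against 22.7% of all features. With total counts that count was 1, with snoRNA factors 0 and with limma 1. DESeq2 called 2, NOP56 and GAR1. Shares over all features were not taken for these alternatives. GAR1 had the lowest value, -2.73 (SE 0.754, adjusted p = 0.0543), followed by NHP2 at -1.26 (adjusted p = 0.349), NOP58 at -1.08 (adjusted p = 0.105), NOP56 at -0.99 (adjusted p = 0.0700) and SNU13 at -0.92 (adjusted p = 0.138). In 7 genes both untreated ubc9-1 libraries lay below both untreated WT libraries, as for 22.6% of all features; the others were BCD1, NOP10 and NAF1. CBF5, NOP1, NAF1 and BCD1 were at -0.74, -0.72, -0.56 and -0.32, and NOP10 was at -0.02. This direction depends on the scaling: with snoRNA factors the median of all features was 1.03, that of the members was 0.18, and 7 of the 10 turned positive. C/D box snoRNAs took 7.29% ± 0.0897 of the counts in untreated ubc9-1 and 15.7% ± 1.85 in untreated WT (SD, n = 2 each), so factors taken from snoRNAs carry that difference. This comparison and the WT response use the same untreated WT libraries, so the 2 sets of values are not independent.

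Under rapamycin the strains had 0 members called by edgeR and 0 by DESeq2. By edgeR 1.24% of all features were called higher in ubc9-1, and 4 of the 10 had an unadjusted p under 0.05 (17.8% of all features). That count of 4 was 0 with total counts, 3 with snoRNA factors and 0 with limma. Values split by gene: NOP10 was at 1.31 (SE 0.369, adjusted p = 0.0802), BCD1 at 1.24 (adjusted p = 0.206), SNU13 at 1.02 (adjusted p = 0.154) and CBF5 at 0.90 (adjusted p = 0.177). In these 4 genes and in NOP56, both treated ubc9-1 libraries lay above both treated WT libraries, as for 27.2% of all features. NOP58, NOP56 and NHP2 were at 0.29, 0.29 and 0.19, and GAR1, NOP1 and NAF1 at -0.16, -0.20 and -0.48, all with overlapping libraries but NOP56. The median of the 10 was 0.29, against 0 over all features, and it was -0.05 with scaling by total counts, where that of all features was -0.34.

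The question of C/D against H/ACA proteins was put to each library as the mean log2 CPM of the 5 C/D genes minus that of the 5 H/ACA genes, which the scaling of a library leaves nearly untouched. Gene lengths differ, so the size of this difference is not a ratio of levels, and only its change between groups is read. It was 1.37 and 1.25 in ubc9-1 with rapamycin, 1.68 and 1.78 in ubc9-1 untreated, 1.05 and 1.31 in WT with rapamycin, and 1.63 and 1.39 in WT untreated. Both treated libraries lay below both untreated ones in each strain, and the change with rapamycin was -0.42 in ubc9-1 and -0.33 in WT. On this scale the C/D mean was lower under rapamycin relative to the H/ACA mean, and no test was made of it. In ubc9-1 that change rested on GAR1: without it the difference was 1.08 and 0.899 with rapamycin and 0.778 and 1.25 untreated, which overlap, and the change was -0.02. In WT the change without GAR1 was -0.24 with no overlap. With the 4 core proteins of each side, WT libraries overlapped between treatments (change -0.16), and in ubc9-1 the change was -0.63.

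**Figure D4:**
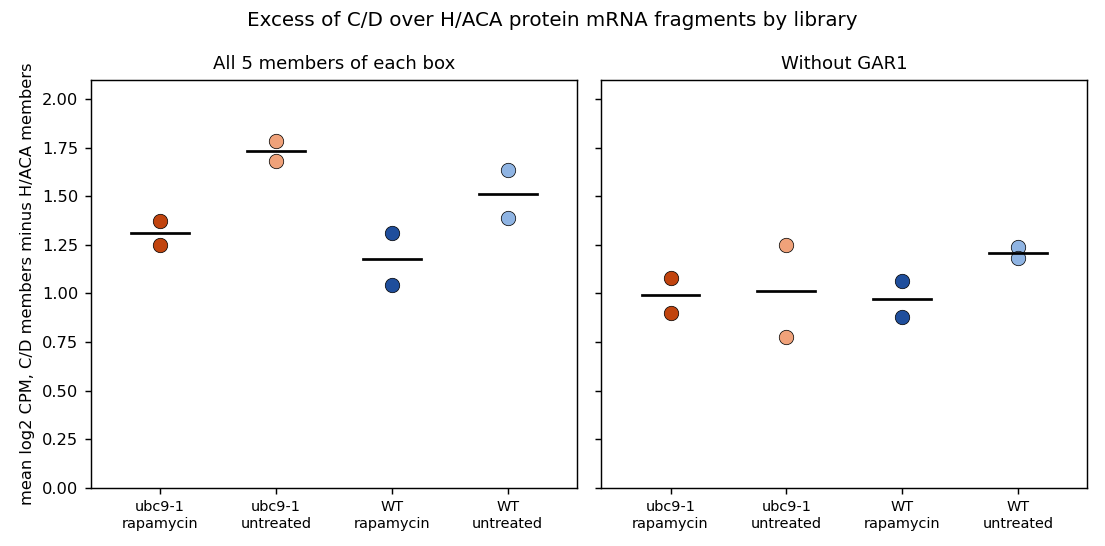
Mean log2 CPM of the C/D genes minus that of the H/ACA genes in each library (points) with the group mean (bar), for all 5 genes of each side (left) and without GAR1 (right). On the left the 2 rapamycin groups, at means of 1.31 and 1.18, lie below the untreated group of their strain, at 1.73 and 1.51; on the right the ubc9-1 groups overlap.

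By raw counts the 2 sides kept nearly the same balance. C/D genes held 63.9% and 61.9% of the members' counts in ubc9-1 with rapamycin, 62.9% and 66.4% in ubc9-1 untreated, 61.7% and 66.6% in WT with rapamycin, and 67.2% and 68.1% in WT untreated. Only the WT groups did not overlap between treatments. Per gene, the median log2 response in WT was -2.26 for C/D genes and -1.82 for H/ACA genes, with 5 of 5 and 4 of 5 called (11.6% of all features were called lower), and in ubc9-1 it was -0.89 and -1.10, with 1 of 5 and 0 of 5 called (0.654% of all features). The H/ACA count in WT was 1 with total counts, 1 with snoRNA factors, 2 with limma and 1 without replicate 2 of WT with rapamycin, where the C/D count was 5, 5, 5 and 4; a difference between the sides was not tested. For the snoRNAs themselves, unscaled shares of all counts were taken. C/D box snoRNAs took 14.8% ± 1.65 of counts in ubc9-1 with rapamycin, against 7.29% ± 0.0897 untreated (SD, n = 2 each). In WT they took 16.0% ± 2.92 with rapamycin, against 15.7% ± 1.85 untreated (SD, n = 2 each). H/ACA box snoRNAs took 0.674% ± 0.155, 0.529% ± 0.233, 1.75% ± 0.166 and 0.627% ± 0.228 in the same 4 groups. RNA of 50 to 100 nt was selected, so these shares may come from fragments. They are not levels of whole snoRNAs, and the 2 boxes cannot be compared by level. The C/D snoRNA shares of treated and untreated WT overlapped by library, while the C/D protein mRNAs did not. The H/ACA snoRNA shares of WT did not overlap, at 1.63% and 1.87% with rapamycin and 0.465% and 0.788% untreated. These shares were higher with rapamycin, where the H/ACA protein mRNAs of WT were lower. No test was made of the snoRNA shares.

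Levels of different genes were compared as TMM-scaled CPM per kilobase of gene length. This takes fragments to come evenly along an mRNA, which was not tested. NOP10 (177 bases) and SNU13 (381 bases) are the shortest members, and an effect of length on these values was not tested either. In untreated WT, SNU13 stood first at 96.8 ± 9.06, then NOP1 at 51.5 ± 3.81 and NOP10 at 46.8 ± 0.627 (SD, n = 2), and the ranges of these genes over the 2 libraries did not overlap. CBF5 (27.6 ± 8.54) lay below NOP10, again with no overlap. CBF5, NOP58 (23.4 ± 6.56), NOP56 (18.4 ± 5.05) and NAF1 (13.8 ± 5.41) each overlapped the next in range. By full gene length, CBF5, NOP58 and NOP56 stood in that order within each untreated WT library, and not in every library of the other groups. NOP58 and NOP56 lose reads over 254 and 326 bases shared with another feature, so their values may be low. Their order against CBF5, which has no such overlap, is therefore not settled. BCD1, GAR1 and NHP2 were lowest, at 7.64 ± 2.68, 7.05 ± 3.86 and 6.49 ± 3.31, with overlapping libraries. The 4 C/D core mRNAs, whose proteins meet in one particle, thus spanned 18.4 (NOP56) to 96.8 (SNU13) by full gene length in untreated WT. In ubc9-1 with rapamycin NOP10 stood first at 32.8 ± 5.81, overlapping SNU13 at 31.6 ± 16.8, and NOP1 was the third at 11.1 ± 1.02. In untreated ubc9-1 SNU13 (59.9 and 42.9) and NOP10 (47.1 and 45.5) led with overlapping libraries. In WT with rapamycin SNU13 (15.5 ± 0.838), NOP10 (13.3 ± 4.60) and NOP1 (12.8 ± 3.16) led, and each overlapped the others. The same 3 genes headed the order in all 4 groups, and NHP2 or GAR1 closed it.

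Across the 8 libraries the members moved together to different degrees. The Pearson r of a gene's log2 CPM with the mean of the other 9 was 0.975 for NOP58, 0.963 for NOP56 and CBF5, 0.941 for SNU13, 0.932 for NHP2, 0.918 for NOP1, 0.831 for BCD1, 0.799 for NOP10, 0.770 for NAF1 and 0.426 for GAR1. These 8 points share libraries and fall into treated and untreated groups, so r is a description. The 5 features outside the members with the highest r to their mean, of 4576 ranked, were RLP7 (0.986), RPL37B (0.984), NOP53 (0.984), YPL080C (0.981) and DBP10 (0.978). RLP7, NOP53 and DBP10 encode assembly factors of the large ribosomal subunit, and RPL37B one of its proteins. RLP7 had 6.75 and 4.68 CPM in ubc9-1 with rapamycin, 12.1 and 12.1 in ubc9-1 untreated, 4.26 and 2.43 in WT with rapamycin, and 17.6 and 22.6 in WT untreated, the order of group means also seen in 7 of the 10 genes.

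Other genes of snoRNA biology were read from 6 lists of 45 genes, beside the 11.6% of all features called lower in WT. In WT, all 5 helicases that act on snoRNAs in pre-ribosomes fell with rapamycin (median log2 fold change -3.20), among them ROK1, which frees snR30, at -3.72 (adjusted p = 0.000111), DBP4, which acts on U14, at -3.63, HAS1 at -2.88 and PRP43 at -1.97. Of the 4 proteins specific to the U3 snoRNP, a C/D particle needed for the cleavage of pre-rRNA, 3 were called lower (median of the 4 -2.23). They were IMP4 at -2.25, MPP10 at -2.21 and RRP9 at -1.86. IMP3 was also lower, at -2.48 (SE 1.01), and was not called (adjusted p = 0.0954). Of 14 genes for snoRNA termination, processing, capping and snoRNP modification 7 were called lower and 10 had negative values (median of the 14 -1.03). Those called included MTR4, the helicase of the nuclear exosome, at -2.96, and HMT1, which methylates arginines of Nop1 and Gar1, at -1.92. Among its called genes the smallest falls were in SRP40, at -1.05, and TRF4, at -1.01. Of these counts in WT the 5 helicases held under every alternative run. The U3 proteins had 1 called with total counts, with limma or without replicate 2 of WT with rapamycin, and 2 with snoRNA factors. The termination and processing list had 1 called with total counts or limma, 3 with snoRNA factors, 4 from only the 4 WT libraries or without either WT untreated replicate, and 2 without replicate 2 of WT with rapamycin.

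The assembly factors outside the members divided. SHQ1, the chaperone of Cbf5, fell by 2.46 (adjusted p = 0.000248), and RSA1, a scaffold of C/D assembly, was at -1.59 (adjusted p = 0.0259), while the other 4 tested were not called (list median -0.43), such as the ATPases RVB1 at -0.27 (adjusted p = 0.619) and RVB2 at -0.22 (adjusted p = 0.768), which also serve other complexes and were chosen here after their values were seen. HIT1 had too few counts to be tested. Pseudouridine synthases that work without a guide RNA had 4 of 9 called (median -1.10): PUS3 was at -1.89, PUS1 at -1.87, PUS4 at -1.54 and PUS7 at -1.10. That count was 0 with total counts or limma, and 2 with snoRNA factors or without either replicate of WT with rapamycin. The count of 2 for SHQ1 and RSA1 was 1 with total counts, snoRNA factors or limma, and 1 without any single WT library. Of the 6 proteins of U4/U6 and the tri-snRNP, the other home of Snu13, 0 were called by edgeR and 1 had an unadjusted p under 0.05 (median -0.60), with PRP6 at -0.99 (adjusted p = 0.0811) and SNU66 at -0.58 (adjusted p = 0.372). In ubc9-1, HAS1 was at -1.90 (adjusted p = 0.0197) and MTR4 at -1.59 (adjusted p = 0.0138), and no other list gene was called, where 0.654% of all features were called lower. Both calls were lost with total counts or limma, and without replicate 1 or replicate 2 of ubc9-1 with rapamycin or replicate 2 of ubc9-1 untreated. Between the strains and for the interaction edgeR called 0 genes of every list, with 1 to 4 genes of a list at an unadjusted p under 0.05 without the drug, 0 to 3 with it and 0 to 4 for the interaction. That the members differ from these lists was not tested.

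**Figure D5:**
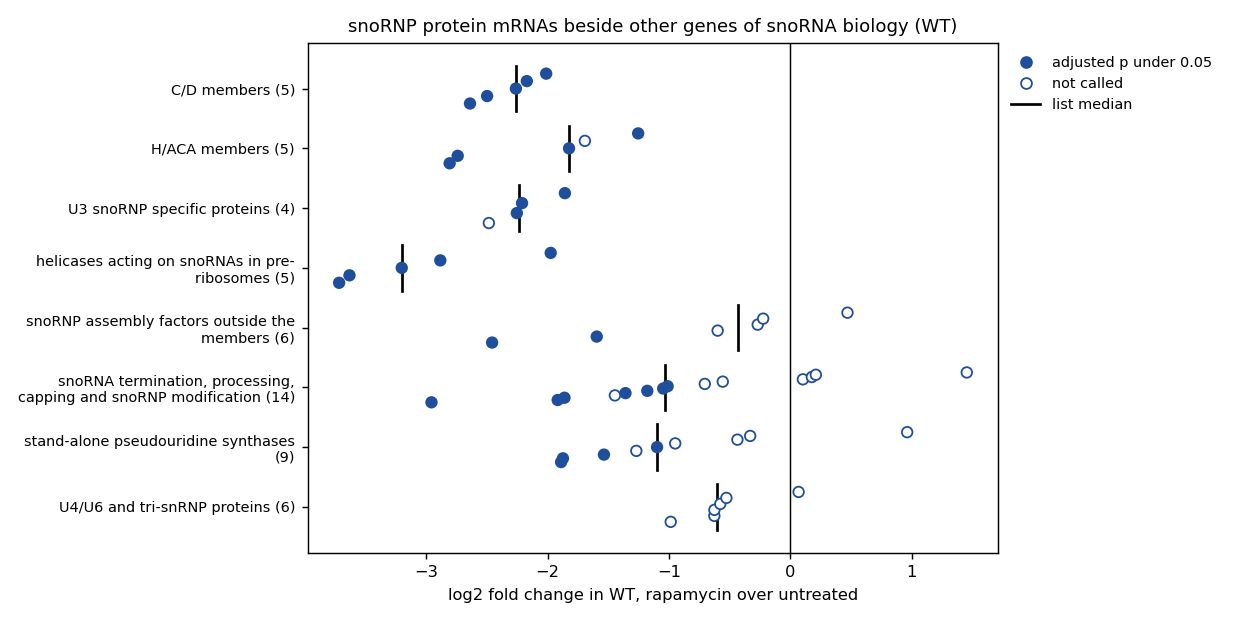
Log2 fold change in WT, rapamycin over untreated, for the members by side and for the tested genes of each list (points; filled where the adjusted p is under 0.05), with the median of each row (bar). Medians run from -3.20 for the helicases to -0.43 for the other assembly factors, and the members lie at -2.26 and -1.82.

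The promoter elements were then set beside the responses of genes outside the 10. Of the 321 other tested genes with both cores, 57.6% were called lower in WT with rapamycin, at a median log2 fold change of -1.72. The share was 13.1% of 801 genes with the PAC core alone, 15.3% of 490 with the RRPE core alone, and 4.31% of 3987 with neither. In ubc9-1 the shares were 8.10% with both cores and 0.125% with neither, and those with both had a median of -0.75. In untreated cells the median of those 321 genes for ubc9-1 over WT was -0.49, and under rapamycin it was 0.41. Under TMM scaling the medians of those 321 genes thus lay on the same side of 0 as the members' in all 4 pairwise comparisons. The members' median for untreated ubc9-1 over WT was 0.18 with snoRNA factors. Under rapamycin their median for ubc9-1 over WT was -0.05 with total counts. The 321 genes were read under TMM scaling only. Among the lists, both cores stood before 4 of 5 helicases (HAS1, PRP43, ROK1 and DBP4), 2 of 4 U3 proteins (IMP3 and IMP4), 4 of 14 termination and processing genes (RNT1, MTR4, LHP1 and HMT1), 3 of 9 pseudouridine synthases (PUS1, PUS3 and PUS4), 1 of 7 other assembly factors (SHQ1) and 1 of 6 tri-snRNP genes (SNU66). Of these, IMP3, RNT1 and SNU66 were not called in WT. These are counts of matches beside measured responses, and no test of the elements was made.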

How the data were processed

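The members, lists, tests and alternatives were chosen with earlier results of these data known. Total RNA was prepared with RNeasy columns and 50 to 100 nt RNA selected, per the labels. The deposited values are whole-number counts per gene. Build R64, the counter featureCounts 1.4.6-p3 and the aligner TopHat2 2.0.13 are those of the submitters' processing notes. Per the file headers, counting used paired reads at gene level, counted each alignment of a multi-mapping read, ignored strand and left reads in overlaps of genes unassigned. NOP56 and NOP58 overlap another feature, by 326 and 254 bases, so they lose reads there. The deposited CPM equal counts over the column total and served 1 alternative, limma-trend on log2(CPM + 1).

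Tests used edgeR 4.0.16 under R 4.3.3 (quasi-likelihood F test), with TMM scaling, filterByExpr (minimum count 10), all 8 libraries and 1 coefficient per group. The procedure was checked on simulated data. P-values were adjusted by Benjamini-Hochberg over 6115 features per comparison and called at 0.05. Standard errors are the absolute log2 fold change over the root of F. Mean log2 CPM used a prior count of 2. Library totals were 14304014 to 21061460, and replicates differed beyond sampling noise in every group. Named genes are the 10 members, up to 2 highest and 2 lowest called genes of a list (2 most counted where 0 were called), and the 5 features most like the members with a mean count of at least 50. The chromosome positions of all 10 members were the same in the RefSeq R64 annotation, whose genome gave the upstream windows. Alternatives were total-count, DESeq2 and snoRNA scaling, no filter, the DESeq2 1.42.0 Wald test, limma 3.58.1, only the 4 libraries compared, a replicate block and leaving out each library.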

Additional observations from a re-analysis of the deposited data

How the results depend on the processing

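In WT with rapamycin 9 members were called, and 5 to 9 when 1 library was left out; in ubc9-1 it was 1, and 0 to 1 when 1 library was left out. For ubc9-1 the count was 0 with total counts and 0 with limma on log2(CPM + 1). It was 4 with snoRNA scaling, where the median of all features was -0.66. Between untreated strains 0 became 1 without the filter and 2 with DESeq2, and the interaction gave 1 with DESeq2. Same-numbered libraries deviated together only weakly (r of 0.12, 0.14, 0.20 and 0.10 over features, with 2 pairs in a comparison), so the numbers were not taken to pair samples. With the replicate block the counts were 9 in WT, 3 in ubc9-1 (NOP1, CBF5 and NAF1), 4 between untreated strains (NOP56, NOP58, SNU13 and GAR1), 3 between treated strains (SNU13, BCD1 and NOP10), and 2 for the interaction (SNU13 and CBF5). The share of all features called was taken for the main setting only. Whether calls rose over all features under these alternatives is therefore not shown.

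Signs turned in the comparisons of strains and in the interaction, and for no member in the response to rapamycin within a strain. For untreated ubc9-1 over WT, snoRNA scaling gave NOP1 0.38, NOP56 0.050, SNU13 0.014, BCD1 0.72, CBF5 0.31, NOP10 0.99 and NAF1 0.39. NOP10, near 0, was 0.14 with total counts, 0.11 with limma and 0.0076 from only 4 libraries. Leaving out 1 library, NOP10 ran from -0.026 to 0.014, and BCD1 from -0.64 to 0.084, its highest without replicate 1 of untreated WT. Under rapamycin, NOP56, NOP58 and NHP2 were -0.060, -0.048 and -0.12 with total counts and -0.047, -0.089 and -0.034 with limma. Leaving out 1 library, NOP1 ran from -0.44 to 0.073, NOP58 from -0.28 to 0.74, GAR1 from -0.64 to 0.54, NHP2 from -0.27 to 0.82 and NAF1 from -0.88 to 0.050. For the interaction NOP1 was -0.0078 with total counts and -0.44 with snoRNA scaling, and NAF1 was -0.39, -0.74 and -0.30 with total counts, snoRNA scaling and limma, and ran from -0.36 to 0.61 when 1 library was left out. The causes were not tested.

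The C/D minus H/ACA difference, in the order ubc9-1 with rapamycin, ubc9-1 untreated, WT with rapamycin and WT untreated, was 1.79, 2.42, 2.05 and 2.20 with 4 core proteins of each side. Without GAR1 it was 0.99, 1.01, 0.97 and 1.21, and without GAR1 and NHP2 0.085, 0.17, 0.16 and 0.55, both chosen after seeing the data. Without SNU13 it was 1.18 and 1.65 in the ubc9-1 groups. With 4 to 109 counts, NHP2 and GAR1 are limited by depth. NHP2 did not pass the filter in the fit of the 4 treated libraries, and the interaction has no fit of only 4 libraries.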
